A study of Mus musculus with 6 samples.

Results

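The SLC25 family comprises the mitochondrial carriers, proteins that move metabolites across the inner mitochondrial membrane. Its members were taken as every gene of the expression table whose symbol is Slc25a followed by a number, which gave 45 of 29431 genes. The uncoupling proteins Ucp1, Ucp2 and Ucp3 belong to the same protein family but have other symbols and are not counted here. Expression was measured by RNA sequencing in wild-type (WT) mouse embryos at the 4-cell stage, in 3 LDHB inhibition libraries, treated with the lactate dehydrogenase B blocker that the labels write AXKO-0046, and 3 untreated control libraries. Dose, length of treatment, mouse strain and parental age are unknown here. From the design text 6 embryos were collected, either for each group or for each library. No label ties a library to a litter or culture of its own, so the p-values reflect library-to-library spread that may be technical.

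Most SLC25 proteins sit in the inner membrane and exchange a solute of the matrix for one of the intermembrane space. The aspartate-glutamate and oxoglutarate carriers form, with the malate dehydrogenases and aspartate transaminases, the malate-aspartate shuttle named in the series title, which passes the reducing equivalents of cytosolic NADH to the matrix. Lactate oxidation by LDHB produces cytosolic NADH. Cleavage-stage mouse embryos depend on pyruvate and lactate before they take up glucose at a high rate.

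Values are FPKM, fragments scaled to transcript length and to the size of the library, which can be compared between genes as a level per length. They are relative within a library and the read depth is unknown, and fewer cells of a kind cannot be told apart from less RNA per cell. The 4-cell libraries listed 20094 to 21731 genes above 0 under the inhibitor and 20997 to 22142 in controls. Of 8 embryo markers 6 averaged at least 1 FPKM, led by Dppa3, a maternal chromatin protein, while the 5 cumulus or granulosa cell markers with a row summed to at most 0.0711 FPKM in any inhibitor library and at most 0.245 FPKM in any control. Inhibitor replicate 2 stood apart in genes of the 2-cell stage: 8 such markers summed to 888 FPKM there, whereas inhibitor replicates 1 and 3 gave sums of 25.5 and 16.1 FPKM and controls gave 8.61 to 23.4 FPKM. Genes of mitochondrial DNA took 10.6% to 11.98% of FPKM under the inhibitor and 15.1% to 18.9% in controls. Rescaling without those genes left 0 members passing and moved no sign among the members with full statistics.

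Of the 45 carriers, 28 averaged at least 1 FPKM over the 6 libraries and were tested with limma on log2(FPKM + 1). That is 62.2% of the carriers, where 32.9% of all genes reached that level. None of the 28 passed at a false discovery rate of 0.05, and neither did any of the 9691 genes tested (0%), of which 457 were higher and 368 lower at an unadjusted p under 0.05 in limma. Slc25a13 lay just inside the filter with 1.14 FPKM and Slc25a30 just outside with 0.837 FPKM. Over all 45 members, 36 were above 0 in all 6 libraries and 9 were listed at 0 in at least 1 library.

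The ADP/ATP carriers, which export ATP from the matrix in exchange for ADP, had 3 paralogs of very different level, up to 42.5-fold apart within a library. Their promoter windows are shown for that reason. The windows run from 250 bases before to 50 bases after the gene start that RefSeq gives on GRCm38.p6 and were found for 34 of the 45 members, in 44 windows. Those of the aspartate-glutamate carriers Slc25a12 and Slc25a13 follow, since these encode the regulated step of the malate-aspartate shuttle. Capitals mark the letters of 5 motifs, searched on both strands: TATAA (TATA box), CACGTG (E-box), TTCCCGC (E2F), CCGGAAG (ETS) and TGCGCA (the core bound by NRF1, a regulator of many respiratory genes). No 2 matches overlapped in the windows printed. The starts can differ from the GENCODE coordinates given for each gene: the window of Slc25a5 ends before its GENCODE start, and most of that of Slc25a4 lies after its GENCODE start at 46211284.
Slc25a5 (GRCm38.p6, chrX:36795347-36795646, plus strand): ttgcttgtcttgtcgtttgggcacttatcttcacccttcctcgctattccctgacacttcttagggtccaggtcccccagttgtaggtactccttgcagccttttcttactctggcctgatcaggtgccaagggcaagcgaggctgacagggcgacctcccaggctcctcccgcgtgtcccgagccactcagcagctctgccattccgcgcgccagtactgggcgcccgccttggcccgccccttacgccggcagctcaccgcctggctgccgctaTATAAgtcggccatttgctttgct
Slc25a4 (GRCm38.p6, chr8:46211013-46211312, minus strand): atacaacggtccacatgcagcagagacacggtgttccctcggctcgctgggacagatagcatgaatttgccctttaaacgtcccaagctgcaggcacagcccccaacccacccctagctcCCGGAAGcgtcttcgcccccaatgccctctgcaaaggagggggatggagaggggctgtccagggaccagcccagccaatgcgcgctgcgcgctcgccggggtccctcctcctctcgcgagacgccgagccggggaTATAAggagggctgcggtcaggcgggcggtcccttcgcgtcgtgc
Slc25a31 (GRCm38.p6, chr3:40708621-40708920, plus strand): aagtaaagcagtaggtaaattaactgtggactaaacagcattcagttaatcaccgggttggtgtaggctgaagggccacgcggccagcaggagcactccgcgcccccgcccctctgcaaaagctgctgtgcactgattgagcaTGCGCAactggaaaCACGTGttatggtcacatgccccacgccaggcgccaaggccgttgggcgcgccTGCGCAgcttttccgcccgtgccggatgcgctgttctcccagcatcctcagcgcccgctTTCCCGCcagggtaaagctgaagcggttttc
Slc25a12 (GRCm38.p6, chr2:71367706-71368005, minus strand): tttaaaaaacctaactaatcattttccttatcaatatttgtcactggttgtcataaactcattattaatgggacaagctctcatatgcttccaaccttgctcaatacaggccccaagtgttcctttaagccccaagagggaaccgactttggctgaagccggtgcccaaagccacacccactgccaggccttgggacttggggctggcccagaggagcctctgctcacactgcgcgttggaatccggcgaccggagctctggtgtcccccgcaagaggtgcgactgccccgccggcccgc
Slc25a13 (GRCm38.p6, chr6:6217124-6217423, minus strand): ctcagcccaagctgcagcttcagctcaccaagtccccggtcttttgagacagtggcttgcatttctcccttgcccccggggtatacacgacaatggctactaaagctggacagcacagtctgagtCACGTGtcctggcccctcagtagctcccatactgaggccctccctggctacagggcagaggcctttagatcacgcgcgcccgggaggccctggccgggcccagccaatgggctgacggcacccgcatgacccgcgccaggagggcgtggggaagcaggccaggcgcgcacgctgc

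Slc25a5 and Slc25a4 each held 1 TATAA, the second of them also 1 CCGGAAG, and Slc25a31 held none but had 1 CACGTG, 1 TTCCCGC and 2 copies of TGCGCA. In the window of Slc25a13 there was 1 CACGTG, and the letters of the 5 motifs are not in that of Slc25a12. TATAA occurred in 11.4% of member windows and in 24.9% of all 32851 windows of 300 bases, and CACGTG in 18.2% and 7.2%. For TTCCCGC the shares were 4.5% and 4.6%, for CCGGAAG 13.6% and 8.9%, and for TGCGCA 9.1% and 7.8%. Member windows had a median of 15.5 CpG dinucleotides, against 7 over all windows. A match is only a run of letters, and the files hold no measurement of binding.

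Slc25a5, the ADP/ATP carrier of proliferating cells (X chromosome, 36795651 to 36798807, plus strand, GRCm38), was the most abundant member. It was at 228.6, 235.7 and 373.5 FPKM under the inhibitor, against 215.6, 297.6 and 248.1 FPKM in controls. The groups overlapped, with the highest value in inhibitor replicate 3. The log2 fold change was 0.11 (SE 0.23, 95% interval -0.41 to 0.63, limma adjusted p = 0.901), and without inhibitor replicate 3 it was -0.12. Its level exceeded that of 97.1% of the genes tested. The gene alone made up 33.6% to 48.5% of the summed FPKM of all members under the inhibitor and 34.7% to 39.5% in controls. It shares a stretch of 900 bases at no less than 95% identity with another gene, and the near-identical genes in the table, Gm5529 and Gm5560, averaged at most 1.02 FPKM.

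Slc25a4, the ADP/ATP carrier of heart and skeletal muscle, was at 29.5, 26.6 and 11.8 FPKM under the inhibitor and at 19.9, 14.04 and 16.6 FPKM in controls. Inhibitor replicates 1 and 2 lay above the controls and replicate 3 below them. The ratio of Slc25a5 to Slc25a4 within a library was 7.74, 8.85 and 31.6 under the inhibitor and 10.8, 21.2 and 14.97 in controls. Slc25a31, the ADP/ATP carrier of male germ cells, was at 5.81, 7.95 and 8.79 FPKM under the inhibitor and at 9.48, 9.58 and 7.52 FPKM in controls. Slc25a5 exceeded it 29.6- to 42.5-fold under the inhibitor and 22.7- to 33.02-fold in controls. The 3 paralogs thus kept the order of Slc25a5, Slc25a4 and Slc25a31 in all 6 libraries.

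**Figure D1:**
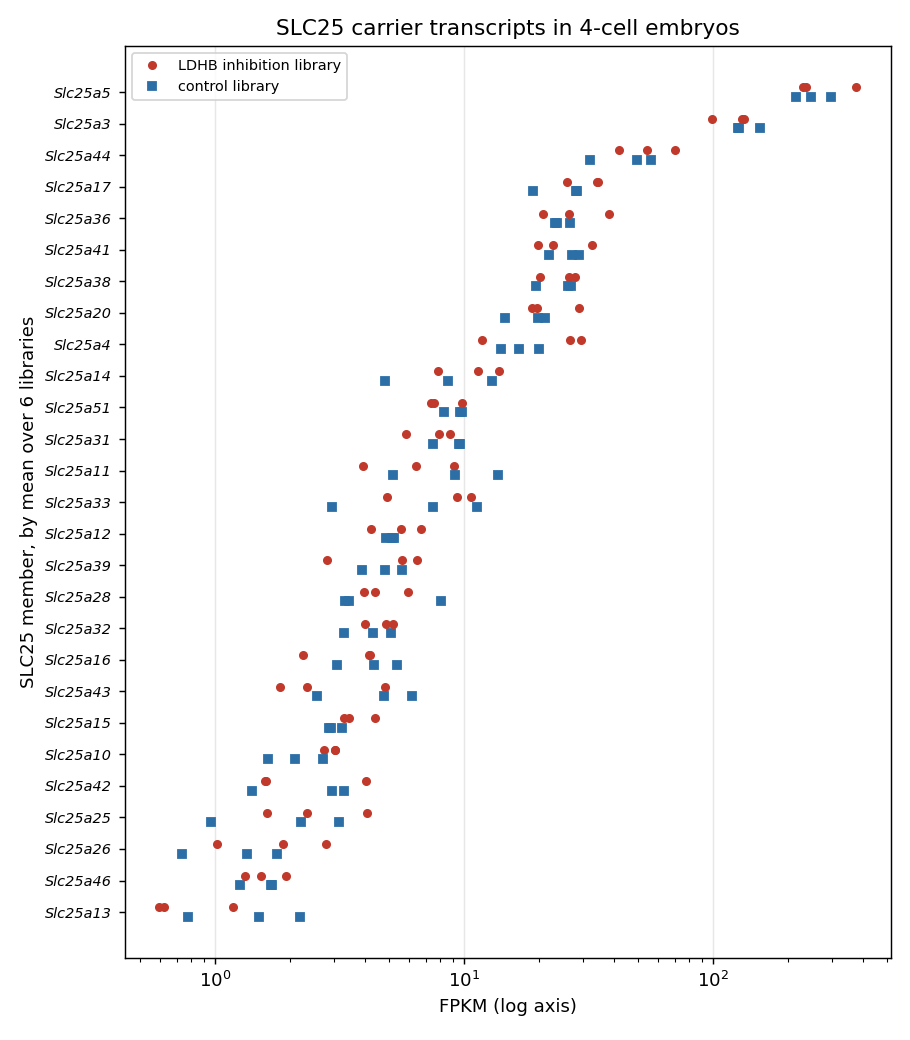
FPKM of 27 SLC25 members that averaged at least 1 FPKM, on a log axis, with a circle per LDHB inhibition library and a square per control library. Slc25a5 and Slc25a3 stand above the rest in all 6 libraries, and below them the ranges of neighbouring members overlap.

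Slc25a3, the phosphate carrier, which supplies the phosphate used by ATP synthase, came next (chromosome 10, 91116574 to 91124059, minus strand). It was at 130.4, 133.4 and 98.9 FPKM under the inhibitor, against 125.6, 153.9 and 126.4 FPKM in controls. The lowest value was in inhibitor replicate 3, and the log2 fold change was -0.17 (SE 0.18, 95% interval -0.59 to 0.25, limma adjusted p = 0.800). Without inhibitor replicate 3 it was -0.030 and without control replicate 2 it was -0.072, and under quantile normalization it was -0.26. Slc25a5 and Slc25a3 together held 52.6% to 61.4% of the summed FPKM of the family under the inhibitor and 54.9% to 59.98% in controls. These 2 members alone averaged 100 FPKM or more. In the order by mean level, 2 of the 27 steps between neighbouring tested members separated the ranges over all 6 libraries: Slc25a5 from Slc25a3, and Slc25a3 from Slc25a44.

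A second tier of 6 carriers averaged between 20 and 100 FPKM. Slc25a44, which carries branched-chain amino acids, was at 41.8, 70.3 and 54.1 FPKM under the inhibitor and at 32.1, 49.5 and 55.99 FPKM in controls. Its groups overlapped (log2 fold change 0.27, SE 0.27, 95% interval -0.34 to 0.89, limma adjusted p = 0.775). The value was 0.041 without control replicate 1, 0.089 without inhibitor replicate 2, 0.46 without inhibitor replicate 1 and 0.43 without control replicate 3, and it was 0.15 under quantile normalization and 0.18 with library weights. Slc25a17, a carrier of cofactors in the peroxisome membrane and so not a mitochondrial protein, was at 34.01, 25.9 and 34.3 FPKM under the inhibitor and at 28.3, 28.2 and 18.9 FPKM in controls. Inhibitor replicates 1 and 3 lay above all controls and replicate 2 among them (log2 fold change 0.32, SE 0.23, 95% interval -0.20 to 0.84, limma adjusted p = 0.707). With 1 library left out the fold change ran from 0.14 without control replicate 3 to 0.45 without inhibitor replicate 2, and it was 0.19 under quantile normalization. Slc25a36, which carries pyrimidine nucleotides, was at 20.8, 26.5 and 38.1 FPKM under the inhibitor and at 26.5, 23.7 and 23.1 FPKM in controls. Its high value was that of inhibitor replicate 3, without which the log2 fold change was -0.053, against 0.17 with it (SE 0.24, 95% interval -0.38 to 0.73, limma adjusted p = 0.848). Slc25a38, a glycine carrier needed for heme synthesis, averaged 24.8 FPKM ± 4.08 under the inhibitor and 24.05 FPKM ± 4.06 in controls (SD, n = 3 each). Slc25a20, the carnitine-acylcarnitine carrier of fatty acid oxidation, averaged 22.4 FPKM ± 5.74 under the inhibitor and 18.5 FPKM ± 3.47 in controls (SD, n = 3 each). It shares near-identical stretches of up to 366 bases with other genes, so its level is uncertain. Of these genes 30 had a row, the highest being Lamtor1 at 46.5 FPKM.

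Slc25a41 completed this tier. It encodes a short ATP-Mg/phosphate carrier that lacks the calcium-binding part of its relatives Slc25a23, Slc25a24 and Slc25a25. It was at 19.8, 32.5 and 22.8 FPKM under the inhibitor and at 26.99, 28.8 and 21.99 FPKM in controls, and both groups covered much the same range (log2 fold change -0.071, SE 0.23, 95% interval -0.60 to 0.46, limma adjusted p = 0.948). The sign turned without inhibitor replicate 1, at 0.078, and without control replicate 2, at 0.0072. The calcium-regulated relatives were far lower: Slc25a25 averaged 2.38 FPKM over the 6 libraries, Slc25a23 0.323 FPKM and Slc25a24 0.135 FPKM. Slc25a41 and Slc25a23 lie beside each other on chromosome 17, on the minus strand, 2056 bases apart (57032773 to 57041654 and 57043711 to 57059863), and Crb3, at 128.8 FPKM, overlaps Slc25a23 on the other strand. Slc25a24 was at 0.05, 0 and 0 FPKM under the inhibitor and at 0.405, 0.271 and 0.0835 FPKM in controls. Every inhibitor library thus lay below every control, at a mean below the filter of the test and with values near 0. That order was found in 6.26% of the genes tested, and no share was computed for genes below the filter.

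Carriers of the malate-aspartate shuttle were present at low to moderate levels. Slc25a12, the aspartate-glutamate carrier of excitable tissues (chromosome 2, 71271063 to 71367749, minus strand), was at 6.69, 5.58 and 4.23 FPKM under the inhibitor, against 5.14, 4.87 and 5.21 FPKM in controls. Controls lay close together, and the inhibitor libraries lay on both sides of them. The log2 fold change was 0.080 (SE 0.24, 95% interval -0.46 to 0.62, limma adjusted p = 0.941), and it was -0.050 without inhibitor replicate 1 and -0.03 under quantile normalization. Slc25a13, or citrin, the aspartate-glutamate carrier that predominates in liver (chromosome 6, 6041218 to 6217173, minus strand), was at 0.596, 0.621 and 1.18 FPKM under the inhibitor, against 1.499, 2.19 and 0.780 FPKM in controls. Inhibitor replicates 1 and 2 lay below all controls, and replicate 3 lay above control replicate 3. Its log2 fold change was -0.44 (SE 0.31, 95% interval -1.14 to 0.25, limma adjusted p = 0.701). It was -0.78 with a pseudocount of 0.1, -0.67 without control replicate 3 and -0.59 without inhibitor replicate 3. It was -0.37 without inhibitor replicate 1, -0.38 without inhibitor replicate 2 and -0.42 without control replicate 1. Without control replicate 2 the mean fell below the filter. The ratio of Slc25a12 to Slc25a13 in the same library was 11.2, 8.98 and 3.59 under the inhibitor and 3.43, 2.23 and 6.68 in controls, so Slc25a12 was the higher of the pair in all 6 libraries. The groups of ratios overlapped (log2 difference 0.94, exact two-sided permutation p = 0.2, Benjamini-Hochberg adjusted p = 0.8 over 6 ratios, where 3 against 3 allows no p below 0.1).

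Slc25a11, the oxoglutarate-malate carrier that completes the shuttle (chromosome 11, 70644196 to 70647479, minus strand), was at 6.42, 9.13 and 3.91 FPKM under the inhibitor, against 13.7, 9.19 and 5.16 FPKM in controls. In both groups replicate 3 was the lowest. The log2 fold change was -0.44 (SE 0.38, 95% interval -1.31 to 0.43, limma adjusted p = 0.745). It was -0.14 without control replicate 1, -0.17 without inhibitor replicate 3, -0.69 without inhibitor replicate 2 and -0.77 without control replicate 3. Rnf167 overlaps this gene on the other strand and averaged 24.8 FPKM over the 6 libraries, and the protocol mentions no strand, so reads of the overlap cannot be assigned to either gene. The glutamate carriers were scarcer: Slc25a22 was at 0.650, 1.61 and 0.172 FPKM under the inhibitor and at 0.762, 1.02 and 0.115 FPKM in controls, and Slc25a18 at 0.918, 0.220 and 0.347 FPKM under the inhibitor and at 0.0164, 0.670 and 0.198 FPKM in controls. Both averaged under 1 FPKM and were not tested, and the groups overlapped in each. Slc25a18 is overlapped on the other strand by Atp6v1e1, at 59.04 FPKM.

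**Figure D2:**
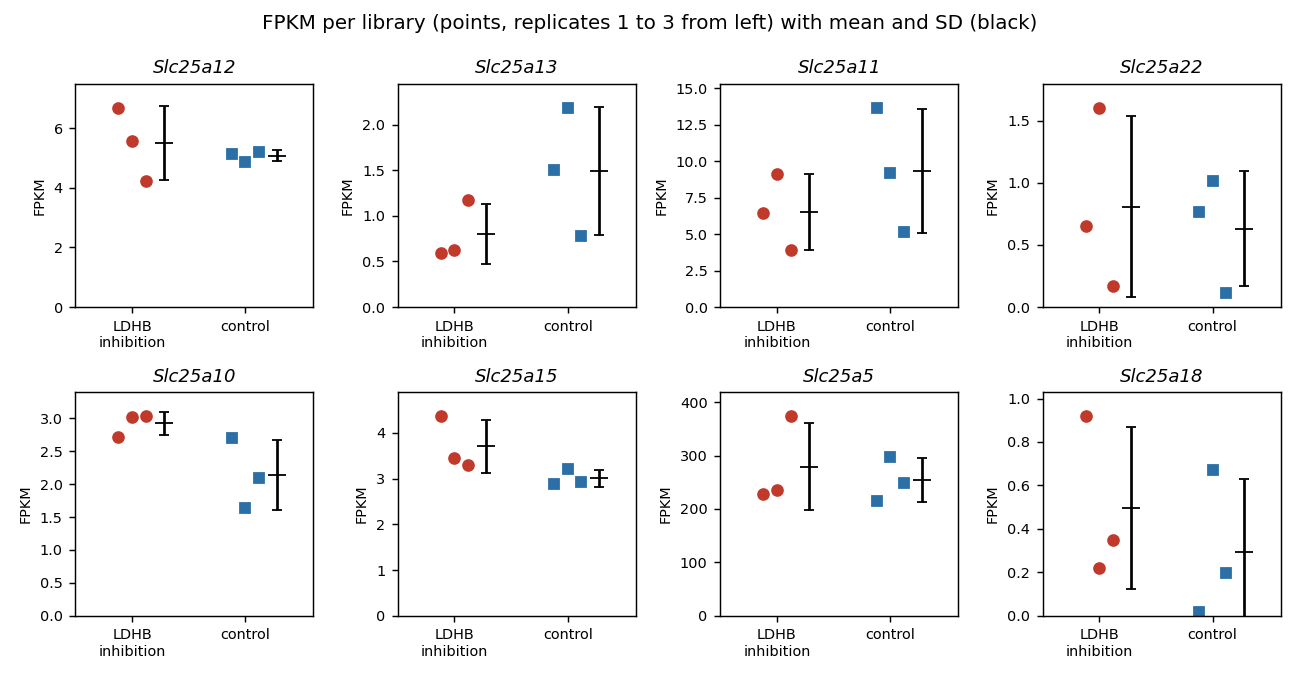
FPKM of 8 carriers in each library, as circles for LDHB inhibition and squares for controls (replicates 1 to 3 from left to right), with the mean and SD of each group in black. Slc25a10 and Slc25a15 are the panels in which the groups do not overlap, and in the other 6 they do.

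Of the 4 enzymes of the shuttle, all tested, 0 passed and 3 had a fold change above 0, as did 57.1% of all genes tested. Got2, the mitochondrial aspartate transaminase, had the smallest p of them, with 2.07 FPKM ± 0.322 under the inhibitor and 1.39 FPKM ± 0.255 in controls (SD, n = 3 each; limma adjusted p = 0.676). The malate dehydrogenase of the matrix, Mdh2, stood at 245 FPKM ± 58.6 under the inhibitor and 219.6 FPKM ± 13.04 in controls, above every shuttle carrier in level.

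In 2 members all inhibitor libraries lay above all controls, an order found in 9.13% of all genes tested, and in 0 tested members all lay below, an order found in 6.26%. At an unadjusted p under 0.05 in limma, 0 of the 28 were higher, where 4.72% of all genes tested were, and 1 was lower, where 3.8% were. Slc25a10, the dicarboxylate carrier, which exchanges malate or succinate for phosphate, was at 2.72, 3.01 and 3.03 FPKM under the inhibitor, against 2.70, 1.63 and 2.09 FPKM in controls. The groups met within a narrow gap between inhibitor replicate 1 and control replicate 1, and the log2 fold change was 0.33 (SE 0.23, 95% interval -0.20 to 0.87, limma adjusted p = 0.705). With 1 library left out it ran from 0.21 without control replicate 2 to 0.46 without control replicate 1. Slc25a15, the ornithine carrier of the urea cycle, was at 4.36, 3.44 and 3.30 FPKM under the inhibitor, against 2.87, 3.22 and 2.92 FPKM in controls. Its log2 fold change was 0.23 (SE 0.22, 95% interval -0.28 to 0.73, limma adjusted p = 0.775). It ran from 0.13 without inhibitor replicate 1 to 0.29 without inhibitor replicate 3 when 1 library was left out.

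Of the carriers of nucleotides and cofactors, all 9 of 9 reached the filter, with 5 fold changes above 0 and 4 below. Beside Slc25a17 and Slc25a36 they include Slc25a51, which imports NAD into mitochondria, at 9.82, 7.32 and 7.56 FPKM under the inhibitor and at 9.799, 9.60 and 8.26 FPKM in controls. Inhibitor replicate 1 lay just above the highest control, and the other inhibitor libraries lay below all controls (limma adjusted p = 0.854). Slc25a51 shares near-identical stretches of up to 159 bases with other genes, so its level is uncertain. Of these genes 119 had a row, the highest being Mrpl20 at 262.1 FPKM. Slc25a33, the other pyrimidine nucleotide carrier, was at 10.6, 9.37 and 4.88 FPKM under the inhibitor and at 11.2, 7.498 and 2.95 FPKM in controls, with replicate 3 the lowest of both groups. Gm13068, at 13.6 FPKM, overlaps Slc25a33 on the other strand and shares a near-identical stretch of 284 bases with it, so its level and the ratio of Slc25a36 to it are uncertain. Slc25a32, linked to folate and flavin transport, averaged 4.66 FPKM ± 0.616 under the inhibitor and 4.22 FPKM ± 0.896 in controls, a difference within the spread of both. Of the carriers linked to coenzyme A, Slc25a16 averaged 3.52 FPKM ± 1.11 under the inhibitor and 4.27 FPKM ± 1.15 in controls, and Slc25a42 averaged 2.40 FPKM ± 1.41 under the inhibitor and 2.54 FPKM ± 0.999 in controls (SD, n = 3 each). Slc25a26, the carrier of S-adenosylmethionine, averaged 1.89 FPKM ± 0.886 under the inhibitor and 1.28 FPKM ± 0.520 in controls.

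Other classes were represented by 1 main member each. For iron it was Slc25a28, or mitoferrin 2, at 4.75 FPKM ± 1.04 under the inhibitor and 4.93 FPKM ± 2.69 in controls, while Slc25a37, mitoferrin 1 of red cell precursors, was at 0.0158 FPKM in inhibitor replicate 2, at 0.0837 FPKM in control replicate 1 and listed at 0 in the other 4 libraries. For glutathione it was Slc25a39, at 4.97 FPKM ± 1.91 under the inhibitor and 4.77 FPKM ± 0.874 in controls, with Slc25a40 at 0.186 FPKM over the 6 libraries. Among relatives of the uncoupling proteins it was Slc25a14, at 7.84, 13.8 and 11.4 FPKM under the inhibitor and at 8.61, 12.9 and 4.81 FPKM in controls, the highest fold change of the 28 (0.35, SE 0.35, limma adjusted p = 0.777). Slc25a43, an orphan carrier that lies 18448 bases from Slc25a5 on the X chromosome, averaged 2.98 FPKM ± 1.59 under the inhibitor and 4.51 FPKM ± 1.82 in controls. Slc25a46, a protein of the outer membrane involved in mitochondrial shape, averaged 1.59 FPKM ± 0.305 under the inhibitor and 1.54 FPKM ± 0.241 in controls (SD, n = 3 each).

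The remaining low members included the citrate carrier Slc25a1, at 0.589, 0.394 and 1.27 FPKM under the inhibitor and at 0.976, 0.554 and 0 FPKM in controls. Slc25a21, the oxodicarboxylate carrier, was at 0.273, 0.375 and 0.1998 FPKM under the inhibitor and at 0.707, 1.08 and 0.242 FPKM in controls. Slc25a27, Slc25a29 and Slc25a47 were listed at 0 in all 3 controls and reached at most 0.0632, 0.145 and 0.113 FPKM under the inhibitor, so no fold is given. Slc25a29 and Slc25a47 lie 162 bases apart on chromosome 12, on opposite strands. Slc25a2, Slc25a34, Slc25a48, Slc25a53 and Slc25a35 averaged between 0.0183 and 0.606 FPKM over the 6 libraries, and Slc25a22, Slc25a18, Slc25a40 and Slc25a30 are given above. Rangrf, at 28.4 FPKM, overlaps Slc25a35 on the other strand.

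**Figure D3:**
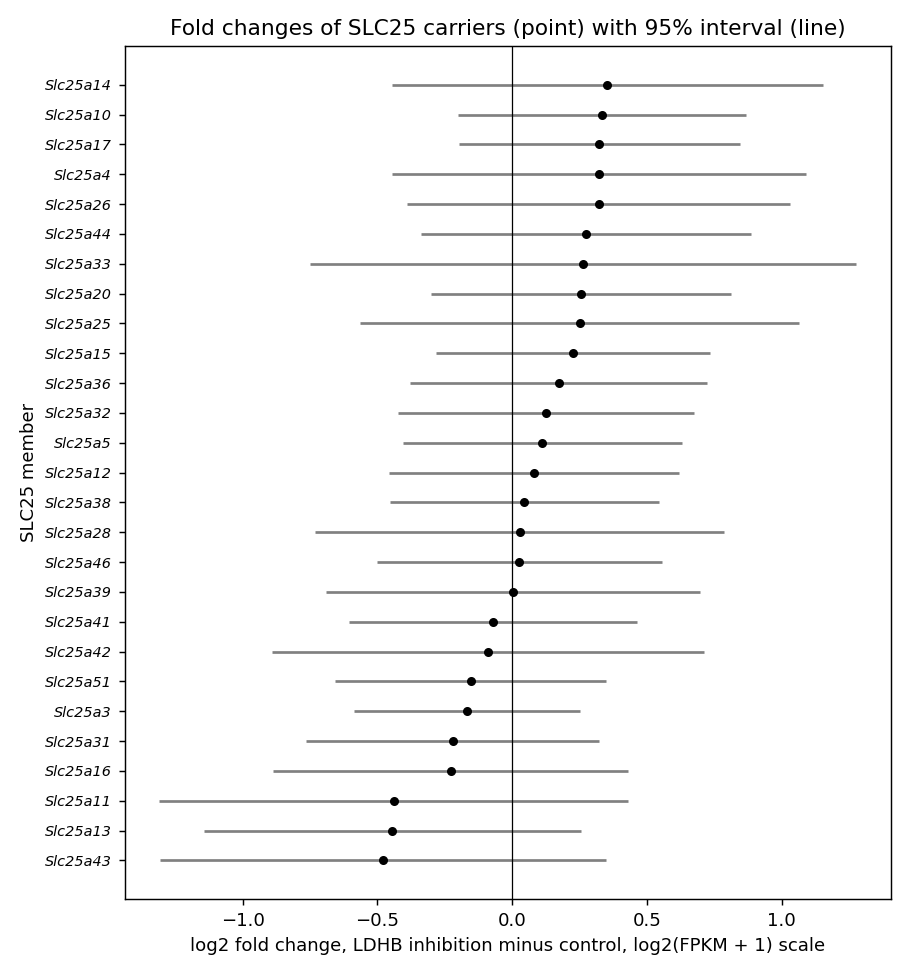
Log2 fold changes (LDHB inhibition minus control, log2(FPKM + 1) scale) of 27 of the members tested, as points with their 95% intervals from limma as lines. All 27 intervals include 0, and 19 lie wholly between -1 and 1.

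Of the 28 tested members, 27 had a fold change of less than 0.5 in size on the log2(FPKM + 1) scale, between -0.48 for Slc25a43 and 0.35 for Slc25a14. The median of the 28 was 0.063, and that of all 9691 genes was 0.062. Fold changes above 0 were found in 18 of the 28 (64.3%), against 57.1% of all genes. The split followed the scaling: 14 of the 28 were above 0 under median-ratio scaling, where 49.6% of all genes were, and 13 under quantile normalization, where 47% were. The 95% interval included 0 in 27 members and lay within -1 and 1 in 19, so changes beyond 2-fold lay outside the intervals of these 19 on that scale, which understates changes of low genes. The authors' deposited table marked 0 of the 45 members among its 233 marked genes. Among those reported here, its p-value, from an unstated tool, was under 0.05 for Slc25a21 (0.045, q = 0.638) and Slc25a24 (0.020, q = 0.43). Both averaged under 1 FPKM, and the share of all genes at such a p is not given here.

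**Figure D4:**
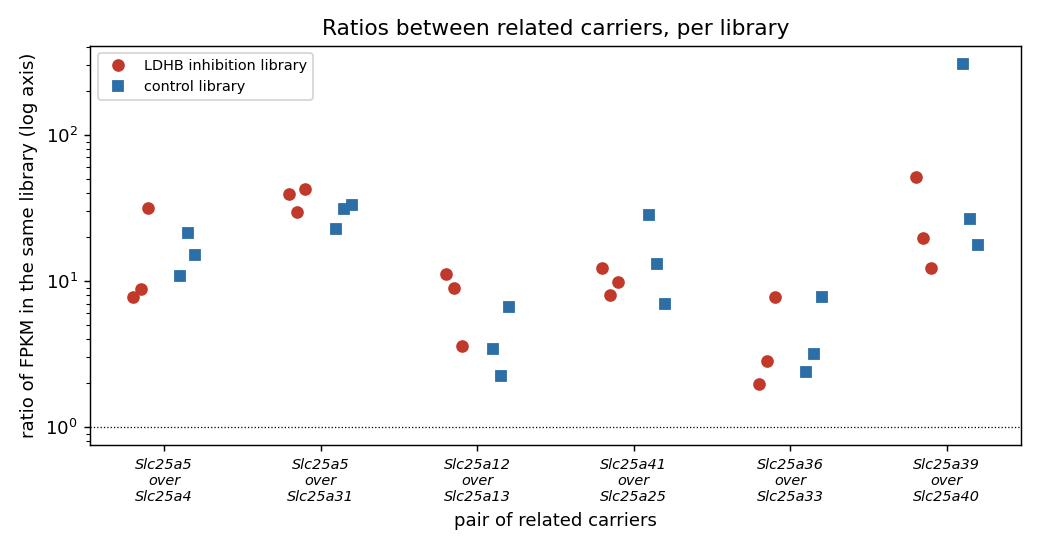
Ratio of FPKM between 6 pairs of related carriers within each library, on a log axis, with circles for LDHB inhibition and squares for controls (replicates 1 to 3 from left to right). All ratios lie above 1, and the groups overlap in all 6 pairs.

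Ratios of related carriers, chosen after the levels had been seen, kept their direction in every library. Slc25a41 exceeded Slc25a25 by 12.3-, 8.02- and 9.79-fold under the inhibitor and 28.1-, 13.02- and 7.01-fold in controls. Slc25a36 exceeded Slc25a33 by 1.96-, 2.83- and 7.81-fold under the inhibitor and 2.37-, 3.15- and 7.81-fold in controls. Over the 6 pairs the smallest exact two-sided permutation p was 0.2, with a Benjamini-Hochberg adjusted p of 0.8 for each, where 3 against 3 cannot reach 0.05.

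Proteins that deliver carriers to the inner membrane were compared as neighbours in function. Carrier import, through the Tom70 receptor and the small Tim chaperones to the TIM22 translocase, had 10 genes tested with 0 calls, and in 3 of them all inhibitor libraries lay above all controls, an order found in 9.13% of all genes tested. Tomm70a, the outer membrane receptor of carrier precursors, averaged 10.97 FPKM ± 1.04 under the inhibitor and 7.5 FPKM ± 0.408 in controls (SD, n = 3 each; log2 fold change 0.49, SE 0.21, limma adjusted p = 0.579). Of 10 tested transport proteins outside the family 0 passed, and 5 had a fold change above 0. Letm1, a cation exchanger of the inner membrane, averaged 0.674 FPKM ± 0.238 under the inhibitor and 1.44 FPKM ± 0.202 in controls (SD, n = 3 each, log2 fold change -0.55, SE 0.26, limma adjusted p = 0.608). In Letm1 alone of these 10, all inhibitor libraries lay below all controls, an order found in 6.26% of all genes tested. Its mean over the 6 libraries, 1.06 FPKM, lay just above the filter. The subunits of the mitochondrial pyruvate carrier were abundant: Mpc1 averaged 262.4 FPKM ± 16.8 under the inhibitor and 296.3 FPKM ± 51.9 in controls (limma adjusted p = 0.801), and Mpc2 averaged 45.4 FPKM ± 10.6 under the inhibitor and 53.7 FPKM ± 2.84 in controls (limma adjusted p = 0.730).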

How the data were processed

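FPKM per gene and library were deposited by the authors, per the file headers. Per the submitters' processing notes, the tools included StringTie 2.1.6, HISAT2 2.2.1, cutadapt 1.9, edgeR and DESeq2, with build GRCm38. Their roles and the annotation release are not stated. Per the labels' protocols, oligo(dT)-primed full-length complementary DNA underwent PCR and fragmentation before paired-end sequencing, and no strand or molecular identifier is mentioned. The authors' deposited table also holds a fold (ratio of group means), its log2, and a p-value and q-value per gene from an unstated tool. Enrichment tables were not used.

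Sample titles gave both group and replicate number. limma 3.58.1 (R 4.3.3, trended and robust empirical Bayes) was run on log2(FPKM + 1) for genes averaging 1 FPKM or more, with Benjamini-Hochberg adjustment over all 9691, and was tested on simulated data. The depth is unknown, so no counting interval is given. Members, classes and comparison lists were chosen with earlier results of these data known. Full statistics were given for aspartate, glutamate and oxoglutarate carriers, members whose groups did not overlap, the 6 most abundant, and those with an unadjusted p under 0.05, of which 1 member is not reported here but is counted in all totals. The other members whose values by library or test are given were chosen after their values were seen. Of the comparison lists, up to 4 genes with the smallest p were eligible to be named. Coordinates came from GENCODE M21, on the same build, which holds all 45 members. Of these, 23 overlap another annotated gene and 18 share at least 100 bases at 95% identity or more with another gene's transcript (BLAST 2.17.0, longest transcript of each member), so their levels are uncertain. Alternatives covered the pseudocount, filter, scaling, fit, library weights, replicate block and each library left out. Plots used matplotlib 3.10.9 under Python 3.11.15.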

Additional observations from a re-analysis of the deposited data

How the results depend on the processing

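No tested member passed at a false discovery rate of 0.05 under any of the 15 alternatives. Over all genes, 12 passed without inhibitor replicate 1, 1 without inhibitor replicate 2 and 0 under each other alternative. The number of members at an unadjusted p under 0.05, 1 as reported, was 2 with no filter on low values, where all 45 members were tested and Slc25a24 was added, and 0 to 2 with 1 library left out. It was 0 without inhibitor replicate 2, control replicate 2 or control replicate 3, and 2 without inhibitor replicate 3, when Slc25a4 was added. Over all genes such a p was found in 1300 of 29431 with no filter and in 1182 of 9703 without inhibitor replicate 3. The same held for 871 of 9476 without inhibitor replicate 2. Without control replicate 2 it held for 522 of 9716, and without control replicate 3 for 614 of 9687. Fold changes above 0, 18 as reported, were 29 with no filter and 10 with a mean of at least 5 FPKM, which left 16 members. The median ran from -0.038 under quantile normalization to 0.13 without control replicate 2. Over the 12 tested members under the rule for full statistics, 169 values under an alternative kept their sign and 7 did not: Slc25a12 at -0.03 under quantile normalization and -0.050 without inhibitor replicate 1, Slc25a5 at -6e-04 with library weights and -0.12 without inhibitor replicate 3, Slc25a36 at -0.053 without inhibitor replicate 3, and Slc25a41 at 0.078 without inhibitor replicate 1 and 0.0072 without control replicate 2. The filter, the fit without trended or robust empirical Bayes and the replicate block cannot change the fold change of a tested member. Signs kept under these alternatives were therefore fixed in advance, and the 169 include them. The highest values with 1 library left out were 0.23 for Slc25a12, 0.24 for Slc25a5 and 0.37 for Slc25a36, and the lowest for Slc25a41 was -0.27. The cause was not tested. Where a library was left out of a group, the spread was pooled over both groups. No label says that replicate numbers pair the libraries, and the fit reported treated them as unpaired. Deviations from the group means correlated by 0.136, 0.202 and 0.037 between same-numbered libraries and by -0.194 to 0.055 between the others. Each inhibitor library correlated best with the control of its own number, for replicate 3 by 0.037 against 0.035. Control replicate 3 correlated best with inhibitor replicate 1 (0.055). Whether the numbers mark pairs was not tested. Genes at an unadjusted p under 0.05 in limma were 825 of 9691 as reported and 1300 of 29431 with no filter. They were 465 of 5127 with a mean of at least 5 FPKM. With 1 library left out they ran from 522 of 9716 without control replicate 2 to 1182 of 9703 without inhibitor replicate 3. With the replicate block 0 genes passed, and 1 member and 877 of 9691 genes had an unadjusted p under 0.05 in limma. The median stayed at 0.063, since a block with 1 library of each group per number cannot change a fold change. Members near 1 FPKM are limited by an unknown depth.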

Other observations

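Replicate 3 was the lowest library of both groups in 5 of 28 tested members (17.9%), Slc25a11, Slc25a26, Slc25a33, Slc25a39 and Slc25a42, and in 13.6% of all genes tested. Replicate 1 was the lowest of both groups in 3 of the 28 (10.7%), against 14.1% of all genes, and replicate 2 in 0, against 10.4%. Replicate 2 was the highest of both groups in 6 of the 28 (21.4%), against 15.9% of all genes. For replicate 1 this was 4 (14.3%), against 11.4%, and for replicate 3 it was 2 (7.14%), against 12.01%. None of these differences was tested. For Slc25a37 a retained-intron transcript was the only transcript listed. The 8 transcripts listed for Slc25a53 were of the processed and retained-intron types, with no protein-coding type among them. Slc25a45 and Slc25a54 were not analysed here.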
